A study of Mus musculus with 2 samples.

Results

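The 5 miRNA genes Mir335, Mir483, Mir675, Mir296 and Mir298 lie at the imprinted loci of Mest, Igf2, H19 and Gnas, outside the large imprinted miRNA domain of chromosome 12. They were chosen by locus and not by level, and are 5 of the 1973 miRNA genes that the count tables list. The samples are 2 microRNA-seq libraries of fetal liver at embryonic day 15.5, both from mice of strain B6NCrl, healthy and with both sexes pooled. Replicate 1 came from a pool of 78 embryos and replicate 2 from a pool of 62. The labels give this 1 group only, so no conditions could be compared, and a pool hides the variation between embryos. All values are reads on the gene's own strand (sense counts), and CPM scales a gene's count to a library total of 1000000 sense miRNA counts.

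In an imprinted gene, the copy inherited from one parent is active and the other is silent. Mest and Igf2 are expressed from the paternal copy, with Igf2 encoding a growth factor that is abundant in fetal liver, while H19, a long noncoding RNA beside Igf2, is expressed from the maternal copy. In the Gnas locus, which encodes the stimulatory G protein alpha subunit, Mir296 and Mir298 are known as products of the paternally expressed antisense transcript Nespas. These libraries hold no allelic information, so the parental origin of the reads was not measured. A miRNA hairpin is cut into mature arms of about the same size, the 5p and 3p arms, and an arm recognises its targets mainly through bases 2 to 8, its seed.

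All 5 genes matched RefSeq entries on GRCm38.p6, with 10 mature arms. The hairpins are printed here because a hairpin gene is the unit that was counted, so the counts of its arms cannot be told apart. Capitals mark the mature arms, the 5p arm first.
Mir335: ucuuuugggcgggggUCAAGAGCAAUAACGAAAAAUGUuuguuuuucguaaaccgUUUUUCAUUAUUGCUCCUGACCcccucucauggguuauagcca
Mir483: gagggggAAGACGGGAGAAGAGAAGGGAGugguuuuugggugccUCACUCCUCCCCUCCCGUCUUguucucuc
Mir675: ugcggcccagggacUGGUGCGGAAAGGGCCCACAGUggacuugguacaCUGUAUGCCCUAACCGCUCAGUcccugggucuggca
Mir296: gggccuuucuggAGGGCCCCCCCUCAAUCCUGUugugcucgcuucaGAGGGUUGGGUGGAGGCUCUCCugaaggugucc
Mir298: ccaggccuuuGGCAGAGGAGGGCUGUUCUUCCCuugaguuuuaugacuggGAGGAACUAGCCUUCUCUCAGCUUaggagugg

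The mature arms, with the seed in capitals, show that the genes are grouped by locus and not by sequence.
miR-335-5p: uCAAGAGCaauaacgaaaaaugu
miR-335-3p: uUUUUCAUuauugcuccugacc
miR-483-5p: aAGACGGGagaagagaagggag
miR-483-3p: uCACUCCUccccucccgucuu
miR-675-5p: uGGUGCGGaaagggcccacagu
miR-675-3p: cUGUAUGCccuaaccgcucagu
miR-296-5p: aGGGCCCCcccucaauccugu
miR-296-3p: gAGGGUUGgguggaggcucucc
miR-298-5p: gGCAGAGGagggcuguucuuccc
miR-298-3p: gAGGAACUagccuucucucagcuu

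The 10 arms carry 10 different seeds. Each seed was found in 0 other mature miRNAs among the 1738 of the RefSeq table. By bases 2 to 7 alone, miR-335-5p matched miR-7646-5p, miR-335-3p matched miR-6986-3p, miR-483-3p matched miR-3110-3p and miR-296-5p matched miR-5621-3p, while the remaining arms matched none. Over the 40 pairs of arms from different genes, the longest run of bases shared was 7, between miR-675-5p and miR-296-5p. Each mature sequence was found in 0 other hairpins of the 1005 in that table. Reads mapping to several places were not counted in these tables, and no second copy of an arm was found among the hairpins. The genome itself was not searched.

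The hairpins also differed in base composition. GC content was 42.9% in Mir335, 53.7% in Mir298, 58.9% in Mir483, 63.1% in Mir675 and 63.3% in Mir296, where the median over the 1005 hairpins was 51.7%. Mir335 was the only one of the 5 below that median. Its 5p arm had a GC content of 30.4% and its 3p arm 36.4%.

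The loci place 3 of the genes inside annotated transcripts and leave the other two outside. Mir335 (ENSMUSG00000065501.1, chr6:30741299-30741396, plus strand, GRCm38) lies on the same strand as Mest, in an intron of each of the 7 Mest transcripts that span it. Mir483 (ENSMUSG00000070140.1, chr7:142654924-142654996, minus strand) lies on the strand of Igf2, in an intron of each of the 7 Igf2 transcripts that span it, and also in an intron of the overlapping gene model Gm49394.

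Mir675 (ENSMUSG00000076275.1, chr7:142577064-142577147, minus strand) is exonic in 3 H19 transcripts and intronic in 1. Both of its arms were found as written in H19 transcript sequences. It lies 77.8 kb from Mir483 on the same strand. Mir296 (ENSMUSG00000065521.1, chr2:174267047-174267125, minus strand) and Mir298 (ENSMUSG00000065410.1, chr2:174267504-174267585, minus strand) are 378 bases apart and lie in no other annotated gene of release M21. Nespas, on their strand, ends 13.7 kb from Mir298 in that annotation, and Gnas, on the other strand, begins 16.7 kb from it. The next annotated miRNA gene, Gm27591, 19.1 kb from Mir296 on the other strand, had 0 counts in both libraries, which allows up to 0.543 CPM in replicate 1 and up to 0.946 CPM in replicate 2.

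All 5 genes reached 10 counts in each library and so were called detected, as were 352 of the 1973 genes. Mir335, described in human breast cancer cells as a suppressor of metastasis, was by far the highest of the 5. It had 187404 counts in replicate 1 and 131445 in replicate 2, or 33894 CPM (exact Poisson 95% interval 33740 to 34048) and 41467 CPM (41243 to 41692). Its mean of 37680 ± 5355 CPM (SD, n = 2) was 3.77% ± 0.536 of sense counts. The gap between the libraries is many times the counting error, so replicate spread, not depth, limits this value. In this and later intervals only counting error is covered. PCR copies of a molecule are not independent, so even that error may be larger than the intervals show.

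Mir483, known in human tumours to be produced together with IGF2, had 10659 counts in replicate 1 and 7779 in replicate 2. That is 1928 CPM (interval 1891 to 1965) and 2454 CPM (2400 to 2509), a mean of 2191 ± 372 CPM. Mir675, reported to restrain placental growth in mice, was the lowest. It had 743 counts in replicate 1 and 488 in replicate 2, or 134 CPM (125 to 144) and 154 CPM (141 to 168), a mean of 144 ± 13.8 CPM. Its intervals overlap, in contrast to those of the other members.

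At the Gnas locus the neighbours stood at similar levels. Mir296, studied in mouse embryonic stem cells and in human endothelium, had 8427 counts in replicate 1 and 5991 in replicate 2, or 1524 CPM (1492 to 1557) and 1890 CPM (1842 to 1938), a mean of 1707 ± 259 CPM. Mir298, reported in mouse cells as a regulator of the amyloid-processing enzyme Bace1, had 6878 counts in replicate 1 and 4977 in replicate 2, or 1244 CPM (1215 to 1274) and 1570 CPM (1527 to 1614), a mean of 1407 ± 231 CPM. Both values were greater in replicate 2, as for the other three genes.

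**Figure D1:**
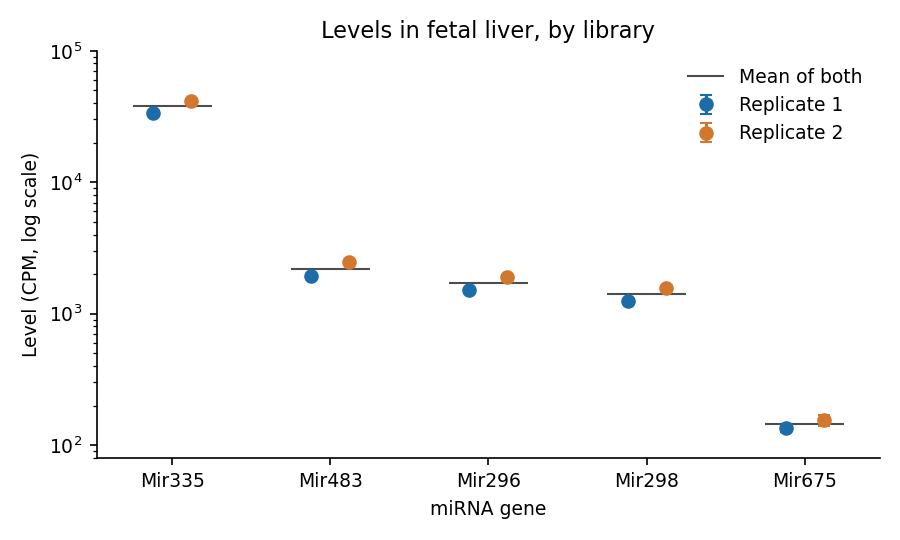
Level of each miRNA gene in CPM (log axis), with a point for replicate 1 and replicate 2, bars for exact Poisson 95% intervals (mostly smaller than the points) and a line for the mean. Mir335 lies near 37680 CPM, Mir483, Mir296 and Mir298 between 1244 and 2454 CPM, and Mir675 at 134 and 154 CPM, with replicate 2 above replicate 1 in each gene.

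The order of the levels was the same in each library: Mir335, Mir483, Mir296, Mir298, Mir675. A small RNA read covers a whole mature molecule, so its count does not grow with the length of the annotated gene. Divided all the same by gene length, which runs over 73 to 98 bases, the levels kept this order. Per 100 bases Mir335 had 34585 CPM in replicate 1, against 42313 CPM in replicate 2, and Mir675 had 160 CPM, against 183 CPM. Mir335 was separated from Mir483, the next in the order, by more than the spread between libraries. So was Mir298 from Mir675. Mir483 and Mir296 were close, as the lowest Mir483 value was 1928 CPM and the highest Mir296 value 1890 CPM. Mir296 and Mir298 overlapped, since Mir298 in replicate 2 exceeded Mir296 in replicate 1.

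Taken within a library, the levels kept similar proportions. Mir335 made up 87.5% of the counts of the 5 genes in replicate 1 and 87.2% in replicate 2. Mir335 counts were 17.6 times those of Mir483 in replicate 1 (exact interval 17.2 to 17.9) and 16.9 times in replicate 2 (16.5 to 17.3). The ratio of Mir298 to Mir296, the closest neighbours, was 0.816 in replicate 1 (0.790 to 0.843) and 0.831 in replicate 2 (0.800 to 0.863). At the joined Igf2 and H19 loci, Mir483 counts were 14.3 times those of Mir675 in replicate 1 (13.3 to 15.5) and 15.9 times in replicate 2 (14.5 to 17.5). Over the 10 pairs that can be formed, the ratio in replicate 1 was 0.900 to 1.04 times that in replicate 2. For 10 of the 10, the intervals of the libraries overlapped. As a description of the whole table, this was so for 48.9% of the 17391 pairs formed by genes averaging 100 CPM or more. Pairs that share a gene are not independent, and deeper genes have narrower intervals. Overlap of intervals is not a test of equal ratios.

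Within the liver profile, the members ran over much of the range of detected genes. Reads mapping to several places, 29.3% of reads in replicate 1 and 31.1% in replicate 2, were left out of the counts. Genes with near-identical copies can therefore be undercounted, and ranks and shares of the members hold only for counts made this way. By sense counts, Mir335 ranked 5 of 1973 genes in both libraries. Mir142, a leukocyte miRNA, has no entry of its own and so no rank. The reads on its strand, opposite to Mir142b, numbered 193651 in replicate 1 and 131496 in replicate 2. Both exceed the Mir335 counts, so the rank of Mir335 would be lower with Mir142 counted. Among the ranked genes, Mir335 stood between Mir26b at 43398 ± 1028 CPM and Mir17, of a cluster linked to proliferation, at 32610 ± 1368 CPM. Its values in the libraries lay below both Mir26b values, 42671 and 44125 CPM, and above both Mir17 values, 31642 and 33577 CPM. Its SD was larger than that of either neighbour and close to the distance between their means and its own.

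Mir483 ranked 62 by mean CPM, between Mir433, of the Dlk1-Dio3 domain, at 2255 ± 135 CPM and Mir206, a skeletal muscle miRNA, at 2029 ± 847 CPM. Mir296 ranked 70, between Mir361 at 1719 ± 136 CPM and Mir375, a miRNA of pancreatic islets, at 1703 ± 266 CPM. Mir298 ranked 81, between Mir148a at 1420 ± 93.7 CPM and Mir194-2 at 1388 ± 60.3 CPM. Mir675 ranked 173, between Mir125b-2 at 150 ± 0.985 CPM and Mir500 at 143 ± 9.21 CPM. The levels of Mir483, Mir296, Mir298 and Mir675 differed from those of their neighbours in rank by less than the SD of their own level.

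**Figure D2:**
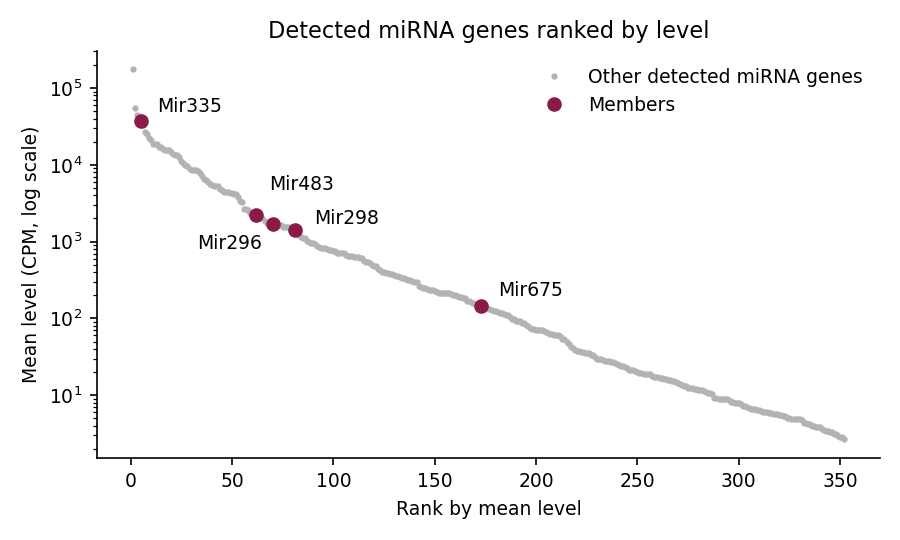
Mean level in CPM (log axis) of the 352 detected miRNA genes against their rank, with the 5 imprinted-locus genes named. By sense counts, in which Mir142 has no entry, Mir335 stands at rank 5, Mir483, Mir296 and Mir298 at ranks 62, 70 and 81, and Mir675 at rank 173.

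The libraries were compared gene by gene to see how far the members vary between pools. All 5 ratios were below 0. The log2 ratio, replicate 1 over replicate 2 on TMM-scaled library sizes, was -0.33 for Mir483, -0.32 for Mir298, -0.30 for Mir296, -0.28 for Mir335 and -0.18 for Mir675, with a median of -0.30. By the exact binomial test with Benjamini-Hochberg adjustment over all 456 genes tested, 4 of the 5 were called lower in replicate 1. In that comparison 38.6% of genes were called, 19.7% lower and 18.9% higher in replicate 1. Among genes that average 100 CPM or more, as all members do, 61.0% were called, 31.0% lower and 29.9% higher, so a call by itself is common at this depth. The adjusted p was 3.81e-52 for Mir483, 2.47e-32 for Mir296 and 1.82e-31 for Mir298, and 0 to machine precision for Mir335. For Mir675 it was 0.0762, with an unadjusted p of 0.0309 from the same exact binomial test. The test covers counting error only and compares these libraries, not conditions. The libraries come from separate pools, and its p-values say nothing of the variation between embryos.

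The size of the shift is easier to read against the other genes. Over the 187 genes of 100 CPM or more, the log2 ratios had a median of -0.01 and an SD of 0.20, and 52.4% were below 0. Counted from the lowest of these ratios, Mir483 was at place 5, Mir298 at 6, Mir296 at 7, Mir335 at 9 and Mir675 at 24. The genes below Mir483 were Mir206 (-0.86), Gm23935 (-0.77), Mir6236 (-0.54) and Mir700 (-0.39), and Mir455 (-0.29) fell between Mir296 and Mir335. These 5 are named for their place in the order once it was seen. The members' shift was 1.26-fold at most, as replicate 2 over replicate 1 for Mir483, and 1.13-fold at least, for Mir675.

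**Figure D3:**
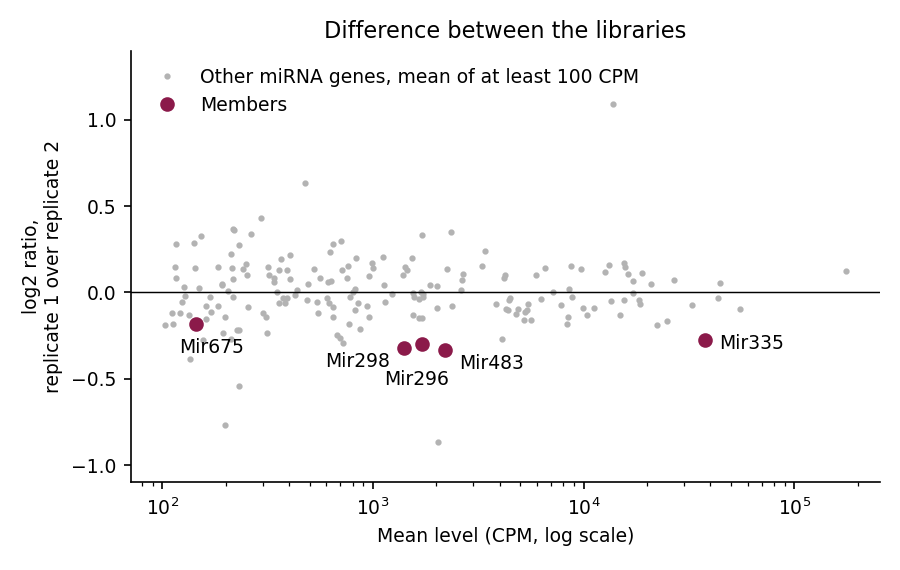
Log2 ratio of replicate 1 over replicate 2 against mean level in CPM (log axis) for the 187 miRNA genes averaging 100 CPM or more. The 5 imprinted-locus genes lie between -0.33 and -0.18, below the median of all 187 at -0.01.

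Markers of cell types in fetal liver, and of skeletal muscle and pancreas, were set beside this shift. In whole tissue, fewer cells of a type and less RNA per cell cannot be told apart. The liver label fits the hepatocyte markers, led by Mir122, which together took 18.7% of sense counts in replicate 1 and 17.3% in replicate 2. All 5 hepatocyte markers were called higher in replicate 1, as were 5 of 5 epithelial markers, whose sum was 4052 CPM in replicate 1, against 3266 CPM in replicate 2. Over all 456 genes tested, 18.9% were called higher and 19.7% lower in replicate 1. Among genes averaging 100 CPM or more, as most of these markers do, the shares were 29.9% and 31.0%. Mir200a, Mir200b and Mir429 lie together on chromosome 4, and Mir200c and Mir141 on chromosome 6, so the epithelial markers are not 5 separate loci. Skeletal muscle markers moved the same way as the members. Of 3 in the table, 2 were tested and both were called lower in replicate 1, with a summed level of 1439 CPM in replicate 1, against 2653 CPM in replicate 2, nearly all Mir206, while Mir1a-1 had 1 count in replicate 1 and 0 in replicate 2.

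Mesenchymal markers went both ways. Of 7 tested, Mir140 (log2 ratio -0.27) and Mir214 (-0.21) were called lower and Mir143 (0.17) and Mir145a (0.37) higher in replicate 1, with a sum of 21373 CPM in replicate 1, against 20568 CPM in replicate 2. Erythroid markers were called lower for Mir144 (-0.18) and Mir486 (-0.18) and higher for Mir451a (1.09), with a sum of 27150 CPM in replicate 1, against 18579 CPM in replicate 2. The direction of that sum was that of Mir451a alone, at 18658 CPM in replicate 1, against 8843 CPM in replicate 2. The endothelial marker Mir126a was at 44812 CPM in replicate 1, against 43586 CPM in replicate 2. The pancreas markers summed to 1906 CPM in replicate 1, against 1529 CPM in replicate 2, nearly all Mir375 (1891 and 1515 CPM). Of the 4 pancreas markers tested, only Mir375 was called, as higher in replicate 1. The 4 leukocyte markers with a count of their own summed to 20786 CPM in replicate 1, against 19376 CPM in replicate 2. Of these, Mir223 (0.11) and Mir342 (0.21) were called higher in replicate 1, and Mir150 and Mir155 were not called. The tables used here have no entry for Mir142, a main leukocyte miRNA. Its strand is covered by reads opposite to Mir142b, which overlaps it, and these came to 35024 per 1000000 sense counts in replicate 1, against 41483 in replicate 2. With them added, the leukocyte sum was lower in replicate 1, at 55809 CPM, against 60859 CPM in replicate 2, the same direction as the members. That direction came from the added reads, since the sum of the 4 counted markers went the other way. The part of cell makeup in the members' shift was not tested.

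Set beside other imprinted miRNA loci, the 5 genes made up 3.87% of sense counts in replicate 1 (exact Clopper-Pearson 95% interval 3.86 to 3.89) and 4.75% in replicate 2 (4.73 to 4.78). The Dlk1-Dio3 domain of chromosome 12, with 59 annotated miRNA genes of which 47 were detected, held 16.7% in both, led by Mir411, Mir127 and Mir487b at 26893 ± 753, 18479 ± 712 and 17084 ± 445 CPM. Counts of the 5 genes were thus 0.232 times those of the domain in replicate 1 (exact interval 0.231 to 0.233) and 0.285 times in replicate 2 (0.283 to 0.287). Between the libraries, 12 of the 49 domain genes tested were called lower and 10 higher in replicate 1, with a median log2 ratio of -0.01. Over all 456 genes tested, 19.7% were called lower and 18.9% higher in replicate 1.

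The miRNA array of Sfmbt2 has 107 annotated genes in this table, 9 of them detected, and held 0.292% in replicate 1 and 0.321% in replicate 2. Its highest members were Mir467c, Mir467d and Mir467e, at 956 ± 71.7, 800 ± 4.12 and 701 ± 95.3 CPM, each below Mir298 and above Mir675. Of 10 tested, 2 were called lower and 1 higher in replicate 1, against 19.7% and 18.9% over all 456 genes tested. The array holds near-identical copies, whose shared reads were left out, so its levels are uncertain. Mir184 beside Rasgrf1 and the genes of the Mir344 group, 14 genes in all, gave 95 counts in replicate 1 and 54 in replicate 2, nearly all from Mir184 at 16.2 ± 0.133 CPM, and 10 of them had 0 counts in both. Over all 185 genes of these loci, the 5 genes took 18.6% of the counts in replicate 1 and 21.8% in replicate 2.

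**Figure D4:**
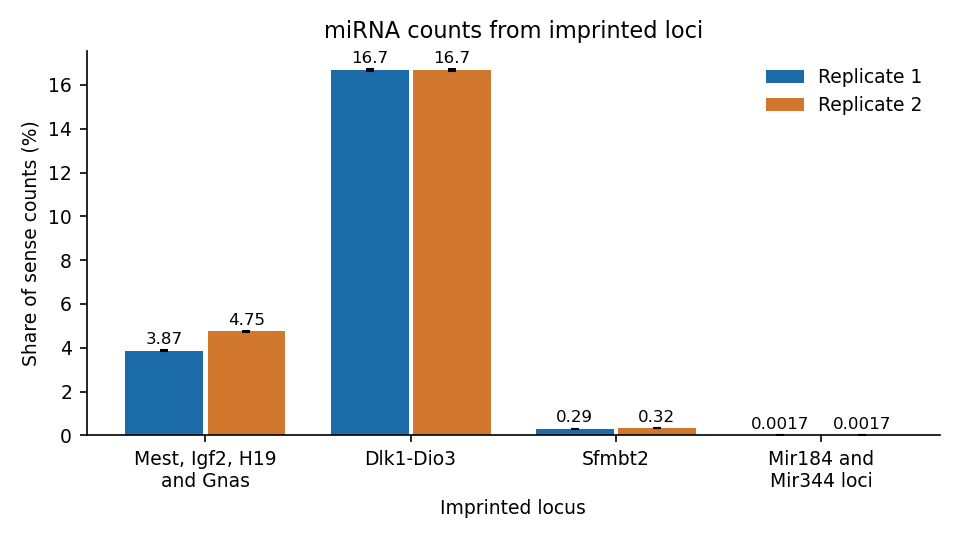
Share of sense miRNA counts (%) from imprinted loci in replicate 1 and replicate 2, with exact 95% intervals. The genes of Mest, Igf2, H19 and Gnas hold 3.87% and 4.75%, the Dlk1-Dio3 domain 16.7% in both, and the remaining loci under 0.33%.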

How the data were processed

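The deposited tables hold raw read counts for each annotated miRNA gene, with columns for both strands, the sense strand and the opposite strand. Per the text deposited with the tables, they were made on mm10 with annotation release M4. The sources used here do not give the aligner or counter. Per the labels, RNA under 30 nucleotides was selected. Sense counts summed to 5529166 in replicate 1 and 3169882 in replicate 2. Reads of no gene stayed out of library sizes: 23.9% of reads in replicate 1 and 21.4% in replicate 2 were unmapped, and 29.3% and 31.1% mapped to several places.

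Names came from GENCODE M21 on the same assembly, where 1894 of 1973 identifiers matched, with the same version for all 5 members. Sequences came from RefSeq (GRCm38.p6). The members and lists were chosen with earlier results of these data known. TMM sizes came from edgeR 4.0.16 (R 4.3.3) and alternative size factors from DESeq2 1.42.0. Genes with at least 10 counts summed were compared between libraries by a two-sided exact conditional binomial test (SciPy 1.17.1), adjusted by Benjamini-Hochberg over all of them, at a threshold of 0.05. Log2 ratios add 0.5 to each count. The test was also run on simulated counts with counting error only, which cannot show how it handles variation between pools. A count of 0 allows 3 counts. Values after ± are SDs of 2 libraries. Besides the members, genes were named by rule: those next above and below a member in mean CPM, miRNA genes within 100 kb, the 3 highest of each list of imprinted loci, and the cell type markers.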

Additional observations from a re-analysis of the deposited data

Results flagged for a closer look

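Mir335 had 7 reads on the strand opposite to the gene in replicate 1 and 3 in replicate 2, out of 187411 and 131448 reads on both strands. The first value is above the 3 counts that a count of 0 allows, but that bound is not a background level for opposite-strand reads. The value was singled out because this column was not used for the levels, and there is no control sample. The other 4 members had 0 opposite-strand reads in both libraries.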

How the results depend on the processing

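All 5 members stayed detected at minima of 1, 5 and 50 counts and with replicate 1 thinned to the total of replicate 2, and their order was the same with both strands counted and per length of gene. The other alternatives scale all genes of a library alike or use 1 library, so they could not change an order that both libraries share. Per 1000000 of all reads, unassigned ones included, the levels were 14163 for Mir335, 823 for Mir483, 54.2 for Mir675, 642 for Mir296 and 529 for Mir298, and the 5 genes held 1.62% of reads. With Mir122 left out of the total, they were 45668, 2655, 175, 2069 and 1705 CPM in the same order, and the share 5.23%. Per 100 bases of gene, Mir483 stood at 3001, Mir675 at 172, Mir296 at 2161 and Mir298 at 1716 CPM, and the ratio of Mir298 to Mir296 was 0.793. With either library left out, each level is that of the other: 33894 to 41467 CPM for Mir335, 1928 to 2454 for Mir483, 134 to 154 for Mir675, 1524 to 1890 for Mir296 and 1244 to 1570 for Mir298, with a share of 3.87 to 4.75% and a ratio of Mir298 to Mir296 of 0.816 to 0.831. The 5 log2 ratios between libraries kept their sign and their side of the threshold under the 5 other settings of minimum, scaling and strand. Mir675 came nearest to a call, with an adjusted p in the exact binomial test from 0.0532 by total counts to 0.150 with no minimum. The number of genes called, 176, ran over 156 to 187. With the reads opposite to Mir142b added, an alternative chosen after seeing the data, the summed leukocyte markers differed by -5049 CPM (replicate 1 minus replicate 2), against 1410 CPM without them. The library comparison cannot be made with a library left out. No paired analysis was possible because the labels give 1 group only. Counting error was largest, relative to level, for Mir675, the only member whose intervals in the libraries overlap. That overlap does not show that depth is its only limit.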
